A study of Mus musculus with 7 samples.

Results

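Gpr6, Gpr3 and Gpr12 encode the 3 closely related orphan G-protein-coupled receptors of this family, and their transcripts were followed in the ventromedial hypothalamus of female mice, in its ventrolateral part (VMHvl). The members are the rows with these 3 symbols in each of 7 gene count files, so 3 of 48321 genes. They were selected on the contrast described here, estradiol benzoate against vehicle, in which Gpr6 was already known to differ, so their own values are a description with no test. All mice were ovariectomized females of mixed background with 129/Sv ancestry, bred from a floxed Esr1 line (Esr1 encodes estrogen receptor alpha). The labels give neither their genotype at that allele nor their age. In the vehicle group 3 mice were injected under the skin with vehicle, and in the EB group 4 mice received 1 µg of estradiol benzoate (EB), an ester of estradiol. The VMHvl was dissected by hand 4 hours later, and each library holds the tissue of a single mouse, named here by group and a number that orders the mice only. By its title, the series asks how estrogen acts on melanocortin signals and on spontaneous activity.

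The 3 receptors couple to the stimulatory G protein and raise cyclic AMP (cAMP) without an added ligand, which is why they are called constitutively active. Cyclic AMP activates protein kinase A, and the kinase phosphorylates the transcription factor CREB, which binds the cAMP response element. In brain, Gpr6 is best known from striatal neurons of the indirect pathway, and Gpr3 is best known for holding mouse oocytes in meiotic arrest. Because such receptors signal without a ligand, the amount of receptor is one of the things that set the signal. Only RNA was measured here.

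Library totals ran from 21037303 to 33302293 counts, with 23668 to 25901 genes detected. Vehicle 1 stood apart from the other vehicle mice: its chi-square per degree of freedom over genes was 185 and 174 against them, while they gave 21.4 between themselves. In the EB group the value was highest, 114, between EB 1 and EB 4. Vehicle 1 and EB 4 also had the highest sums of mural and fibroblast markers in their groups (308 and 240 CPM), and vehicle 1 the highest sum of blood markers (32.7 CPM). Without both libraries the log2 difference was 2.97 for Gpr6, 1.29 for Gpr3 and −0.62 for Gpr12, against 3.06, 1.21 and −0.64 with all 7. In all, 18387 genes had enough counts to be tested. Of these, edgeR's quasi-likelihood test called 175 at a Benjamini-Hochberg adjusted p under 0.05, which is 0.952% of the tested genes; 0.745% were called higher and 0.207% lower with EB. An unadjusted p under 0.05 was reached by 9.04% of the tested genes. Pgr, the progesterone receptor gene and a reference estrogen target, rose in the EB group from 82.2 ± 6.70 to 207 ± 17.6 CPM (each count over its library's TMM-scaled total; SD, n = 3 and 4). Slc17a6, Esr1 and Fezf1 are among the more abundant of the VMH and VMHvl markers used here. Slc17a6 stood at 434 to 555 CPM in vehicle mice and at 590 to 715 CPM in EB mice. Over the 7 libraries Esr1 stood at 160 to 317 CPM and Fezf1 at 108 to 152 CPM. Nr5a1, which defines the VMH in development, stood at only 0.927 to 3.51 CPM.

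All 3 members passed the filter on low counts. In GRCm38, the assembly also named mm10, Gpr6 lies at chr10:41069977-41072285 with 1786 bases of exon. Gpr3 lies at chr4:133209340-133212536 with 2734 bases of exon, and Gpr12 at chr5:146582398-146585239 with 2512 bases. All are protein-coding genes on the minus strand. The 250 bases before the RefSeq start site of each gene (GRCm38.p6, minus strand, 5′ to 3′) are printed to show which response elements of the cAMP and estrogen pathways stand beside the genes. None of these bases lies in an annotated exon. Capitals mark matches to the cAMP response element TGACGTCA (palindromic), to its half-site TGACG or CGTCA, and to the estrogen response element half-site GGTCA or TGACC, on either strand. For Gpr12, which has 2 annotated start sites, the window of the upstream one is shown.
Gpr6, chr10:41072291-41072540: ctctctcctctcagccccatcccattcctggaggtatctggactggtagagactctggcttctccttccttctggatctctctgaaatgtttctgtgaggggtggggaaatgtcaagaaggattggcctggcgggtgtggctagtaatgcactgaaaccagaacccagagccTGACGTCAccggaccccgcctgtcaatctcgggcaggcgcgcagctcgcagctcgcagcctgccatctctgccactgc
Gpr3, chr4:133212537-133212786: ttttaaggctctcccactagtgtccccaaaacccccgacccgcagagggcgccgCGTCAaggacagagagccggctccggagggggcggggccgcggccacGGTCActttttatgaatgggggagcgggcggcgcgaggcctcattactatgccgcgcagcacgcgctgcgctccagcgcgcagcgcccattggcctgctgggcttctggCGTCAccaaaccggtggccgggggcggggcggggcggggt
Gpr12, chr5:146585240-146585489: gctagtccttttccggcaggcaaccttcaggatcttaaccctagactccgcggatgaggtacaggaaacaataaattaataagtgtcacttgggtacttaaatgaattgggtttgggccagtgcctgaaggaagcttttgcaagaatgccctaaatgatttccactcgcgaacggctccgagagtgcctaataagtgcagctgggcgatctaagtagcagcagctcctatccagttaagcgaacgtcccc
The Gpr6 window holds 1 full cAMP response element, 78 to 71 bases before the start site, and no estrogen half-site. A full element was found in 1.55% of 32851 RefSeq windows of the same length. The Gpr3 window holds 2 cAMP half-sites, at 196 to 192 and 40 to 36 bases before the start, and 1 estrogen half-site at 149 to 145 bases. Windows with at least 1 cAMP half-site, full elements included, make up 17.8% of all, and windows with an estrogen half-site 35.2%. Neither Gpr12 window holds any of these letters. The full estrogen response element (GGTCA and TGACC 3 bases apart, 0.0639% of windows) and the AP-1 site TGANTCA (6.75% of windows) were in none of the 4 windows of the members. A match is a description of the letters, since no binding was measured here.

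Gpr6 was the member with the larger difference between groups. In vehicle 1, 2 and 3 it stood at 1.52, 1.68 and 3.35 CPM, from 39, 53 and 76 counts. In EB 1 to 4 it stood at 21.8, 15.1, 19.6 and 14.7 CPM, from 667, 489, 465 and 358 counts. The groups were far apart: the lowest EB mouse was 4.40 times the highest vehicle mouse, and the other 11 of the 12 pairs of an EB and a vehicle mouse had larger ratios, up to 14.4. The mean was 2.18 ± 1.0 CPM in the vehicle group (SD, n = 3), and in the EB group it was 17.8 ± 3.46 CPM (SD, n = 4). The fitted log2 difference was 3.06 ± 0.26 (SE), or 8.36-fold, with a 95% interval of 2.50 to 3.62. In bulk tissue, more cells with the transcript and more transcript per cell cannot be told apart, and the same holds for every level given here. Vehicle 3 held the highest vehicle level, and without it the log2 difference was 3.47.

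Gpr3 was the least abundant member, and its groups overlapped. It stood at 0.777, 0.443 and 1.59 CPM in vehicle 1, 2 and 3, from 20, 14 and 36 counts. In EB 1 to 4 it stood at 2.25, 2.83, 1.56 and 1.36 CPM, from 69, 92, 37 and 33 counts. Vehicle 3 lay above EB 3 and EB 4, and 10 of the 12 pairs of mice were higher with EB. The means were 0.935 ± 0.587 CPM (SD, n = 3) and 2.0 ± 0.675 CPM (SD, n = 4), and the log2 difference of 1.21 ± 0.45 (SE) had a 95% interval of 0.23 to 2.19. Leaving out vehicle 2, the lowest library, gave 0.82, and leaving out vehicle 3 gave 1.78. The 14 counts of vehicle 2 carry an exact Poisson interval of 7.65 to 23.5 counts, which covers counting error only.

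Gpr12 was the most abundant member by CPM and the only one that was lower in the EB group. It stood at 31.8, 43.4 and 35.5 CPM in vehicle 1, 2 and 3, from 819, 1371 and 807 counts. In EB 1 to 4 it stood at 25.4, 23.2, 29.1 and 17.4 CPM, from 776, 754, 690 and 424 counts. Every EB mouse lay below every vehicle mouse on this scale, by a narrow margin between EB 3 and vehicle 1 (ratio 0.913). That separation rests on the TMM factors: with counts divided by library totals alone, EB 3 stood at 30.3 CPM, above vehicle 1 at 27.3. The means were 36.9 ± 5.92 CPM (SD, n = 3) and 23.8 ± 4.86 CPM (SD, n = 4). The log2 difference was −0.64 ± 0.16 (SE), with a 95% interval of −0.98 to −0.30. Without vehicle 2, the highest library, it was −0.50.

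**Figure D1:**
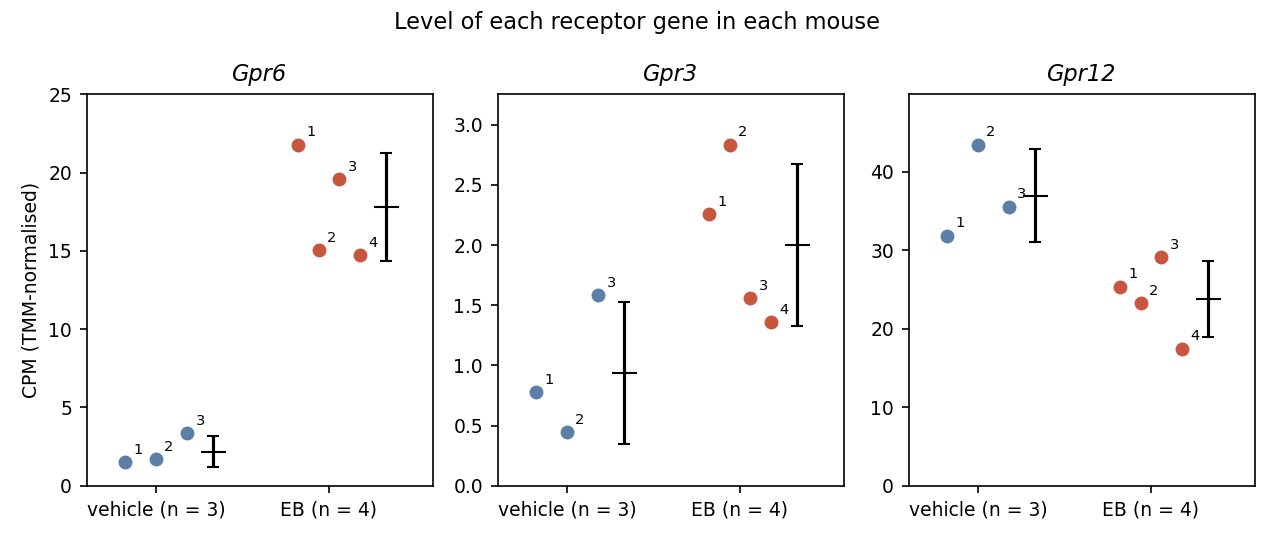
Level of Gpr6, Gpr3 and Gpr12 in each mouse, in TMM-normalised CPM on a separate linear axis for each gene; numbers name the mice, and black marks give the mean and SD of 3 vehicle and 4 EB mice. The 2 groups are far apart for Gpr6, overlap for Gpr3, and are separated in the other direction by a narrow margin for Gpr12.

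Over all tested genes, every EB library stood above every vehicle library in 5.11%, as for Gpr6, and below in 3.99%, as for Gpr12. edgeR called 1 of the 3 members (Gpr6) against 0.952% of the tested genes. DESeq2 called 2 (Gpr6 and Gpr12) against 1.96% of the genes it tested, and limma-voom called 1 (Gpr6) against 0.816%. In the 20 other settings and leave-outs, Gpr6 was past the threshold in 20 and Gpr3 in 0. Gpr12 was past it in 3 (DESeq2, no filter on low counts, 1 surrogate variable) and in 0 of the 7 leave-outs. The sign of each member's difference was the same in all 20. Nothing is read from any of these counts, because the same contrast chose the members and every setting drew on the same 7 mice.

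The spread between mice was larger than counting error for each member. For Gpr6 the coefficient of variation between mice was 46.5% with vehicle and 19.5% with EB, where counting alone gives 13.5% and 4.54%. For Gpr12 it was 16.0% and 20.4%, against 3.20% and 3.93% from counting. Gpr3 varied by 62.8% and 33.7%, against 20.8% and 13.3% from counting, so it is the member whose level is least precisely known. Over the 7 mice Gpr6 and Gpr3 had a Pearson r of 0.80 on log2 CPM, and 0.63 after the group means were removed. Gpr6 and Gpr12 had an r of −0.74, and 0.29 with the group means removed. For Gpr3 and Gpr12 these were −0.62 and −0.10. These values describe 7 libraries that share the group difference, and they carry no test.

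**Figure D2:**
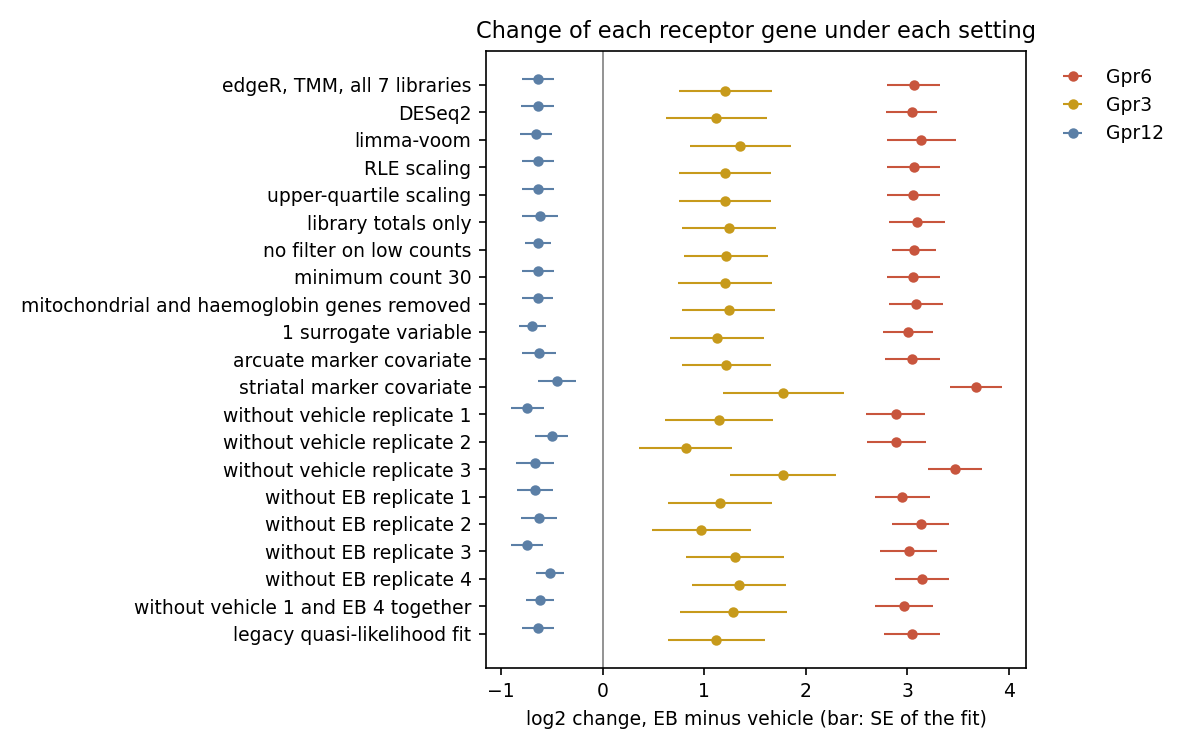
Log2 difference of Gpr6, Gpr3 and Gpr12, EB minus vehicle, in the edgeR fit of all 7 libraries and in each of 20 other settings and leave-outs; bars are the SE of each fit. Gpr6 stays between 2.88 and 3.67, Gpr3 between 0.82 and 1.78, and Gpr12 between −0.74 and −0.45.

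Levels of different genes were compared per kilobase of exon. With vehicle, Gpr12 stood at 14.7 ± 2.36 CPM per kb, Gpr6 at 1.22 ± 0.567 and Gpr3 at 0.342 ± 0.215 (SD, n = 3). In each vehicle mouse Gpr12 was 7.55 to 18.4 times Gpr6. With EB, Gpr6 stood at 9.96 ± 1.94 CPM per kb, Gpr12 at 9.46 ± 1.93 and Gpr3 at 0.732 ± 0.247 (SD, n = 4), and the Gpr12 to Gpr6 ratio was 0.827 to 1.10. With EB, Gpr6 and Gpr12 were thus neighbours in order that did not differ beyond their spread, while Gpr3 stayed far below both. The order of these 2 depends on the length used: per kilobase of coding sequence, Gpr12 was 1.26 to 1.68 times Gpr6 in each EB mouse.

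As a share of the 3 genes' summed level per kb of exon, Gpr6 was 7.52 ± 3.31% with vehicle (SD, n = 3) and 49.5 ± 3.83% with EB (SD, n = 4). Gpr12 was 90.3 ± 4.57% and 46.8 ± 3.35%, and Gpr3 2.14 ± 1.31% and 3.68 ± 1.32%. With coding length the Gpr6 share was 5.05 ± 2.28% and 38.9 ± 3.65%, and the Gpr12 share 92.5 ± 3.74% and 56.2 ± 3.20%. The summed level itself was 16.3 ± 2.31 CPM per kb of exon with vehicle, range 13.8 to 18.4, and 20.2 ± 3.63 with EB, range 15.7 to 23.1, so the groups overlapped in the sum. The shares of Gpr6 and Gpr12 did not overlap between the groups with either length. These are not separate results: the 3 shares add up to the whole, so a higher Gpr6 share by itself lowers that of Gpr12.

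**Figure D3:**
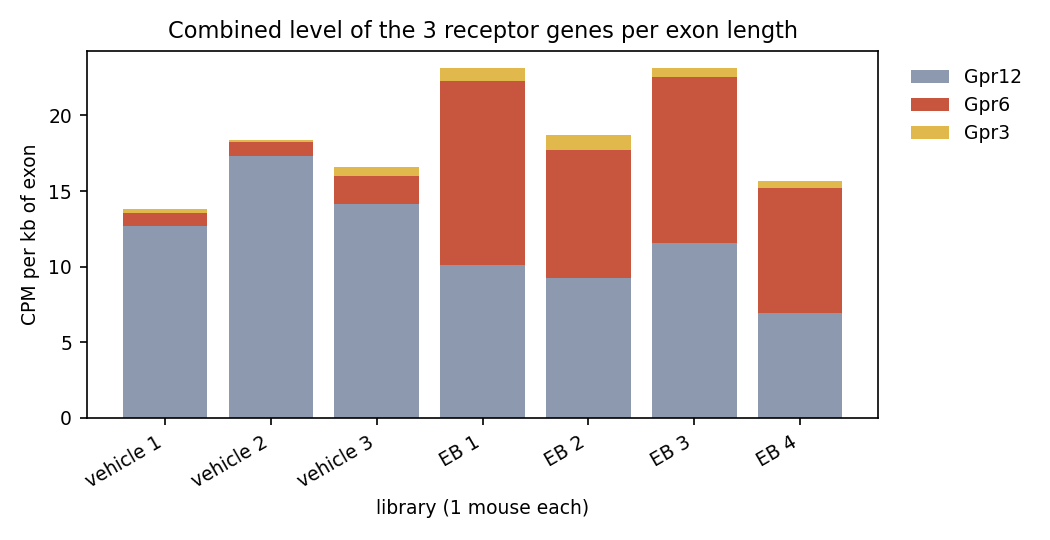
Level of Gpr12, Gpr6 and Gpr3 stacked in each of the 7 libraries, in CPM per kb of exon from 0. Gpr12 fills most of each vehicle bar, Gpr6 and Gpr12 have similar heights in each EB bar, and the totals of the groups overlap.

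The files hold 66 other genes whose symbol is Gpr and a number, a naming group of mostly orphan receptors rather than a family by sequence, and 54 of them were tested. Among the 57 tested genes with the members included, Gpr6 ranked 38th by vehicle level per kb of exon and 9th by EB level. Gpr12 ranked 8th and 11th, and Gpr3 47th and 43rd. These ranks depend on the length used. With EB, Gpr6 stood above Gpr176 per kb of exon (9.96 and 6.51 CPM) but not per kb of coding sequence (16.3 and 16.4 CPM). By log2 difference Gpr6 ranked 1st and Gpr3 3rd, and Gpr12 was 4th from the lowest. Nothing is read from these ranks, because the same contrast chose the members. Gpr3 had a mean of only 0.935 CPM with vehicle, and its groups overlapped. Gpr141, in 2nd place at 1.66, had no count in vehicle 2 and a mean of 0.395 CPM with vehicle, and it was not called (edgeR adjusted p = 0.468).

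Of the 54 others, 1 rose and 1 fell, and their median log2 difference was −0.10, against −0.01 over all tested genes. Gpr176, an orphan receptor, rose from 16.5 ± 1.41 to 25.4 ± 2.12 CPM (log2 0.63 ± 0.12 SE, edgeR adjusted p = 0.0217), with EB higher in all 4 mice than in any vehicle mouse. It was not called without vehicle 1, vehicle 3, EB 1 or EB 2 (edgeR adjusted p up to 0.106). Gpr85, a brain orphan receptor also called SREB2, fell from 45.3 ± 2.03 to 29.9 ± 2.06 CPM (log2 −0.60 ± 0.09 SE, edgeR adjusted p = 0.00602). All 4 EB mice lay below the 3 vehicle mice for Gpr85, and its call held without each library in turn. With library totals alone as scaling, neither gene was called, at log2 differences of similar size and larger SE (Gpr85 −0.56 ± 0.15, edgeR adjusted p = 0.0878; Gpr176 0.66 ± 0.17, 0.0924). An unadjusted p under 0.05 was reached by 13 of the 54. DESeq2 called 4 of the 54.

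**Figure D4:**
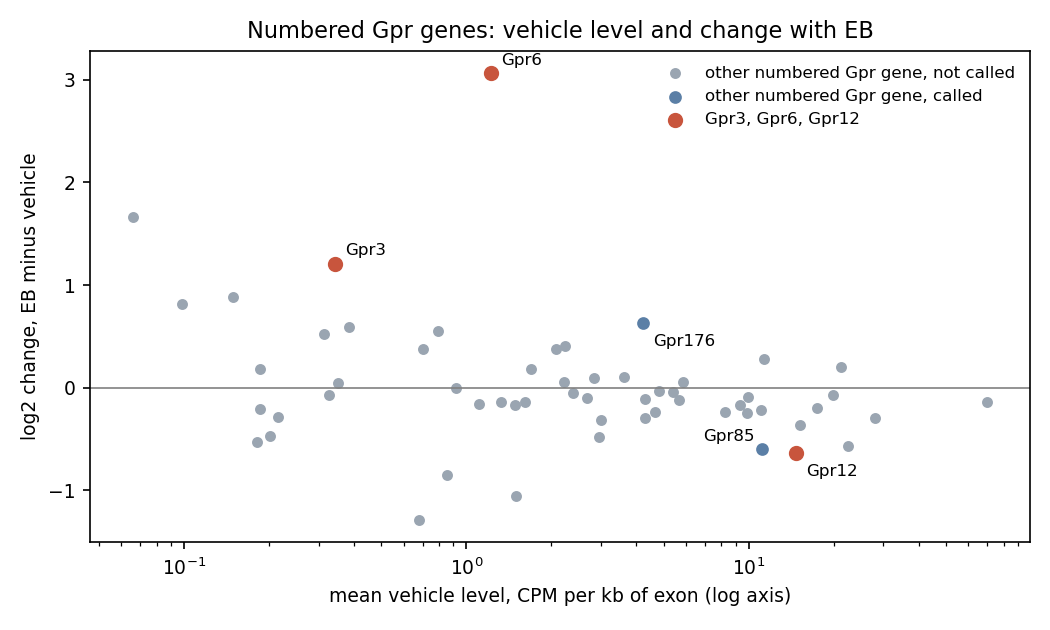
Log2 difference, EB minus vehicle, against the mean vehicle level in CPM per kb of exon (log axis) for the 57 tested numbered Gpr genes; each point is a gene. Gpr6 stands highest at 3.06, Gpr12 lies among the more abundant genes at −0.64, and Gpr176 and Gpr85 are the called genes outside the family.

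The nearest relatives of the family by sequence are the lipid receptors for sphingosine 1-phosphate, lysophosphatidic acid and cannabinoids, with the melanocortin and adenosine receptors. Of 20 such genes 13 were tested, 2 rose, 0 fell, 3 had an unadjusted p under 0.05, and their median log2 difference was 0.09. Both that rose are melanocortin receptors that couple to the stimulatory G protein. Mc3r rose from 8.63 ± 1.53 to 18.8 ± 3.54 CPM (log2 1.14 ± 0.18 SE, edgeR adjusted p = 0.00613). Mc4r rose from 6.50 ± 0.903 to 18.8 ± 7.11 CPM (log2 1.53 ± 0.26 SE, edgeR adjusted p = 0.0113), and its call was lost without any one of the 3 vehicle mice (edgeR adjusted p up to 0.0975). Mc5r had the largest log2 difference of the list, 3.58 ± 0.89 (SE), but stood at 0 to 0.132 CPM in vehicle mice and at 0.494 to 0.927 CPM in EB mice, and was not called by edgeR (adjusted p = 0.0840), though DESeq2 called it (adjusted p = 0.0312).

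Downstream of the receptors come the G proteins and the adenylyl cyclases that make cAMP. Of 16 tested genes 0 were called by edgeR, 1 had an unadjusted p under 0.05, DESeq2 and limma-voom called 0, and the median log2 difference was −0.04. The lowest p values belonged to the inhibitory alpha subunits Gnaz (log2 −0.20, edgeR adjusted p = 0.471) and Gnai1 (−0.09, 0.697). Among 7 receptor kinases and arrestins, which end receptor signalling, edgeR, DESeq2 and limma-voom called 0, with 0 at an unadjusted p under 0.05 and a median of 0.10. Grk5 stood at −0.25 (edgeR adjusted p = 0.682) and Arrb2 at −0.23 (0.684). The phosphodiesterases break cAMP down: of 15 tested, edgeR called 0, with 4 at an unadjusted p under 0.05 and a median of −0.03. Pde1b, a calcium-activated enzyme, was just outside the threshold. It stood at 35.7, 52.2 and 35.9 CPM in vehicle 1 to 3 and at 27.3, 29.1, 27.3 and 24.0 CPM in EB 1 to 4 (log2 −0.62 ± 0.14 SE, edgeR adjusted p = 0.0529, DESeq2 adjusted p = 0.00188; limma-voom called 0 of the list). Every EB mouse was below every vehicle mouse for Pde1b, and vehicle 2 was the highest. Pde4b stood at −0.23 (edgeR adjusted p = 0.277).

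Among 24 effectors of cAMP (protein kinase A subunits, exchange factors, CREB and its coactivators, cyclic nucleotide-gated pacemaker channels and Popeye proteins), 1 rose and 1 fell, 5 had an unadjusted p under 0.05, and the median was 0.02. Prkar2a, a regulatory subunit of protein kinase A, rose from 195 ± 11.8 to 248 ± 15.9 CPM (log2 0.35 ± 0.07 SE, edgeR adjusted p = 0.0309). Popdc3, which encodes a cAMP-binding Popeye protein, fell from 7.63 ± 2.84 to 2.58 ± 0.835 CPM (log2 −1.60 ± 0.30 SE, edgeR adjusted p = 0.0202). For Prkar2a all 4 EB mice lay above, and for Popdc3 all 4 below, the 3 vehicle mice. The Prkar2a call was lost in 6 of the 7 leave-outs (all but vehicle 2; edgeR adjusted p up to 0.175) and with library totals as scaling (log2 0.38 ± 0.13 SE, 0.347), and that of Popdc3 without vehicle 2, EB 1 or EB 2 (up to 0.112). DESeq2 also called the pacemaker channel Hcn4 (edgeR adjusted p = 0.0982).

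Among 19 genes known as targets of CREB, 1 rose and 0 fell. An unadjusted p under 0.05 was reached by 6 of the 19. Pde4b, among these 6 and also in the phosphodiesterase list, was lower with EB (log2 −0.23). The median log2 difference was 0.20, against −0.01 over all tested genes, with 12 genes positive and 7 negative. An unadjusted p under 0.05 was reached by 9.04% of all tested genes. It was reached by 4 of 15 phosphodiesterases, 5 of 24 effectors, 3 of 13 lipid, melanocortin and adenosine receptors and 13 of 54 numbered Gpr genes. Counts were 4 of 7 for the other orphan receptors, 1 of 16 for G proteins and cyclases and 0 of 7 for receptor kinases and arrestins. Nothing is read from these list values, because the lists were chosen with earlier results of these data known. Dusp1, a MAP kinase phosphatase, rose from 7.07 ± 2.16 to 14 ± 1.5 CPM (log2 1.01 ± 0.20 SE, edgeR adjusted p = 0.0280), with all 4 EB mice above the 3 vehicle mice. Its call was lost in 6 of the 7 leave-outs (all but vehicle 3; edgeR adjusted p up to 0.123). DESeq2 called Fos and Sik1 too. Fos, an immediate early gene, stood at 1.83, 1.01 and 1.76 CPM in vehicle 1 to 3 and at 3.30, 3.67, 3.92 and 3.62 CPM in EB 1 to 4 (log2 1.27, edgeR adjusted p = 0.0682). Sik1, a kinase that restrains CREB coactivators, stood at 0.63 on the log2 scale (edgeR adjusted p = 0.135). Both had every EB mouse above every vehicle mouse without passing edgeR's threshold. That separation was found in 5.11% of all tested genes.

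The 7 other tested orphan receptors that couple to the stimulatory G protein or signal without ligand held 0 calls by edgeR, DESeq2 or limma-voom, with 4 at an unadjusted p under 0.05 and a median of 0.09. Gpr26 stood at 132 ± 9.13 CPM in vehicle mice and at 160 ± 15.0 CPM in EB mice (log2 0.28, edgeR adjusted p = 0.210), and Gpr161, a receptor of the primary cilium, at 20.5 ± 2.50 and 14.7 ± 2.72 CPM (−0.48, 0.258). These orphans are also counted among the numbered Gpr genes above.

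**Figure D5:**
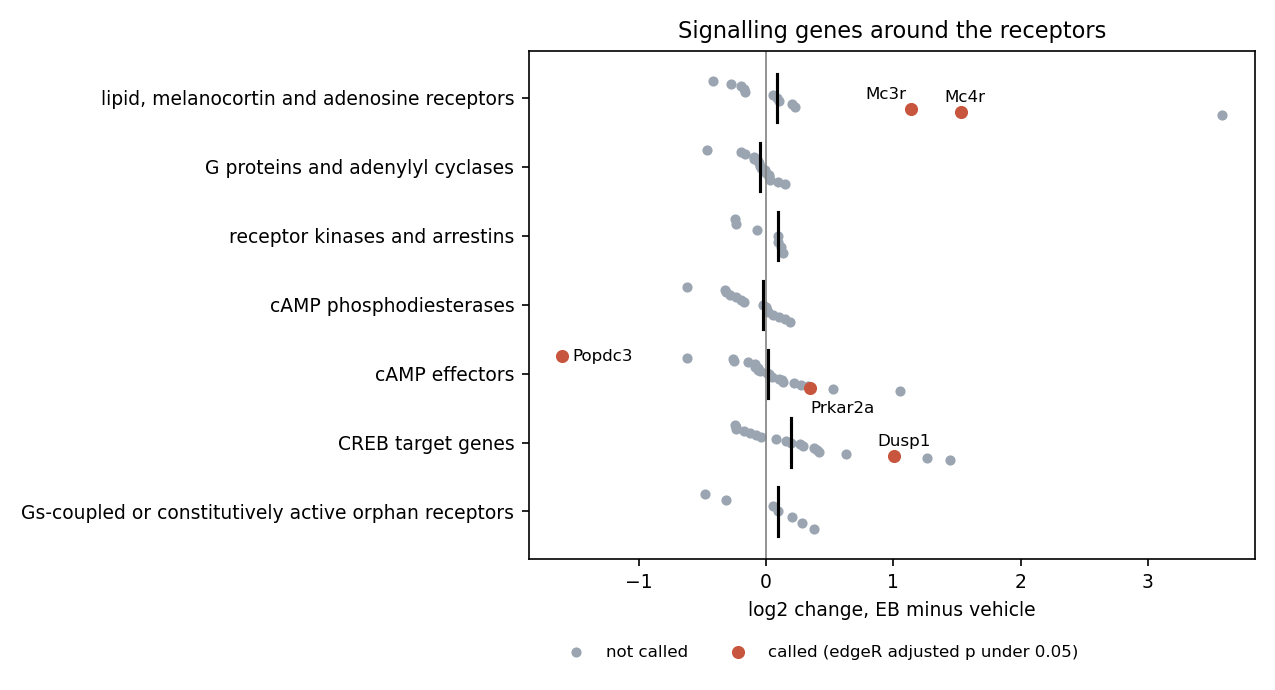
Log2 difference, EB minus vehicle, of each tested gene in 7 lists around the receptors; each point is a gene, the black line is the list median, and called genes are coloured and named. Mc3r, Mc4r, Prkar2a and Dusp1 lie on the higher side and Popdc3 on the lower, and the point at 3.58 is Mc5r, which was not called.

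Each member has a paralog of the same actin-regulating family as its nearest tested gene toward lower coordinates. Wasf1 lies 131.4 kb from Gpr6, Wasf2 9.6 kb from Gpr3 and Wasf3 108.8 kb from Gpr12, and they encode WAVE proteins, which activate the Arp2/3 complex. Wasf1 stood at −0.06, Wasf2 at −0.26 and Wasf3 at 0.03 on the log2 scale. On the other side, Fig4 near Gpr6 stood at 0.26, Map3k6 near Gpr3 at −0.39 and Usp12 near Gpr12 at −0.02. None of these 6 neighbours was called by edgeR (adjusted p from 0.626 to 0.976). Gpr3 overlaps Cd164l2, on the opposite strand, by 406 bases. Cd164l2 had 0 to 4 counts in each library and was not tested, and whether the counting used strand is not given in the sources used here.

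The genes whose log2 CPM followed Gpr6 most closely over the 7 mice, of 14900 genes with a mean of at least 1 CPM, were Rrp1b (Pearson r = 0.992), Nt5dc3 (0.991), Nav1 (0.991), Foxj3 (0.991) and Map2k1 (0.988). Their own log2 differences were between 0.25 and 0.67, far smaller than that of Gpr6. For Gpr3 they were Gm44586 (0.984), Fbxo42 (0.982) and Zfp445 (0.979), and for Gpr12 Brk1 (0.992), BC030336 (0.988) and Gm18609 (0.979). These genes were picked as the highest of many over 7 libraries that share the group difference, so the values are a description without a test.

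Because Gpr6 and Gpr12 are expressed in other regions too, marker genes of neighbouring tissue were set beside them. The summed level of 13 striatal marker genes was 659 to 946 CPM in vehicle mice and 591 to 661 CPM in EB mice (log2 difference −0.23, two-sided exact permutation p = 0.0571, 0.371 adjusted over 13 marker lists). Tac1, which hypothalamic neurons also express, made up 52.1% to 61.7% of this sum in each library. Without Tac1 the sum was 283 to 363 CPM in vehicle mice and 283 to 298 CPM in EB mice. Pde10a, another marker of the list, stood the other way, at 79.8 to 90.7 CPM in vehicle mice and 90.9 to 97.1 CPM in EB mice. Vehicle 2, where Gpr12 was highest, also had the highest striatal sum, with Tac1 and without it. This was not particular to striatal markers. The same mouse had the highest sums of VMH and VMHvl markers (2138 CPM), arcuate markers (742 CPM) and thalamus and habenula markers (256 CPM). The groups overlapped in the sum of all 13 striatal markers. The difference of that striatal sum had the sign of that of Gpr12 and the opposite sign of that of Gpr6. Of the markers of indirect pathway striatal neurons, Adora2a was at 0 to 0.453 CPM and Drd2 at 5.25 to 11.1 CPM. Penk, shared with hypothalamic neurons, was at 43.3 to 67.5 CPM. With the mean log2 CPM of the striatal markers as a covariate, the log2 difference of Gpr6 was 3.67, that of Gpr3 1.78 and that of Gpr12 −0.45. With that covariate Mc3r and Mc4r were called. Popdc3 (log2 −1.80 ± 0.40 SE), Prkar2a (0.38 ± 0.10), Dusp1 (1.17 ± 0.26), Gpr85 (−0.63 ± 0.13) and Gpr176 (0.73 ± 0.16) were not, at differences no smaller than without it and with larger SE. The smallest exact p this design allows is 0.0286. Over 13 lists it adjusts to 0.371 for a single list that reaches it, so that no single list could have passed after adjustment. VMH and VMHvl markers summed to 1546 to 2138 CPM in vehicle mice and 1723 to 2038 CPM in EB mice. The list holds Pgr and Mc4r, and it shares Tac1 with the striatal list. Its sum mixes genes that differed in opposite directions. Cckar stood at 4.04 to 9.85 CPM in vehicle mice and 13.0 to 20.1 CPM in EB mice. Oxtr stood at 109 to 135 CPM in vehicle mice and 61.9 to 79.9 CPM in EB mice. Endothelial markers summed to 79.4 to 107 CPM in vehicle mice and 66.0 to 78.5 CPM in EB mice, with no overlap between the groups. Their log2 difference was −0.39 (two-sided exact permutation p = 0.0571, 0.371 adjusted over 13 marker lists). The part of marker levels in the members' differences was not tested beyond these values.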

How the data were processed

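RNA-seq of hand-dissected VMHvl was analysed for 3 vehicle and 4 EB mice. The authors deposited raw gene counts for each library, with no normalisation. Per the submitters' processing notes, HISAT2, HTSeq, DESeq2 and mm10 were used. Not given in the sources used here were the tool versions, the annotation and the strand setting. The Tecan/NuGEN Trio kit was used on 15 ng of RNA per mouse, per the labels' protocols.

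The members and lists were chosen with earlier results of these data known. Genes were filtered with filterByExpr (minimum count 10), scaled by TMM and fitted with edgeR 4.0.16 in R 4.3.3 (robust glmQLFit, glmQLFTest, no covariate). Calls used a Benjamini-Hochberg adjusted p under 0.05 over 18387 genes. SE is the absolute log2 difference over the square root of F. Log2 CPM used a prior count of 2. Replicates of a group differed by more than sampling noise (chi-square per degree of freedom 18.6 to 185). The fits were tested on simulated data. Named genes were the members, up to 4 called genes per list (or the 2 of smallest p), the nearest neighbours, the 5 or 3 most correlated genes, and Pgr; others were named after their values were seen (Mc5r, Fos, Sik1, Hcn4, Gpr141). Alternatives were DESeq2 1.42.0, limma-voom (limma 3.58.1), other scalings and filters, 1 surrogate variable (sva 3.50.0), counts without mitochondrial and haemoglobin genes, marker covariates and leave-outs. Added after seeing the data were a legacy quasi-likelihood fit and removal of vehicle 1 and EB 4 together, which stood apart in their groups. Exon lengths and neighbours came from GENCODE vM21. Figures used matplotlib 3.10.9 in Python 3.11.15.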

Additional observations from a re-analysis of the deposited data

Results flagged for a closer look

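In the EB group, 4 of 37 quantities held 1 mouse far from the other 3 by Dixon's criterion, which flags about 1 group in 20 by chance. None of these was a member of the receptor family. Popdc3 was at 1.34 CPM in EB 1, where the others were at 2.90 to 3.16 CPM. Wasf2, the gene beside Gpr3, was at 21.7 CPM in EB 4, where the others were at 13.9 to 14.2 CPM. The endothelial marker sum was 78.5 CPM in EB 4, against 66.0 to 67.2 CPM in the others. The pituitary marker sum was 29.2 CPM in EB 4, against 2.84 to 4.07 CPM in the others. In the vehicle mice this sum was 8.20 to 14.5 CPM.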

How the results depend on the processing

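Gpr6, Gpr3 and Gpr12 kept the sign of their difference in each of the 20 other settings. Gpr6 moved by more than the spread between mice only with the striatal marker covariate (log2 3.67). The number of genes called was 351 with DESeq2, 375 with no filter on low counts and 80 with the striatal covariate. With 1 library left out it ran from 102 (without vehicle 3; 107 without EB 1) to 152. Higher genes were 78.3% of calls, 66.1% with DESeq2, 64% with no filter and 86.7% with library totals.

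Among the phosphodiesterases 1 gene was called with DESeq2, upper-quartile scaling, no filter, a minimum count of 30 or 1 surrogate variable, and 0 to 1 with a library left out. CREB targets had 3 calls with DESeq2 or 1 surrogate variable, 4 with no filter, 0 with the arcuate or striatal covariate, and 0 to 1 with a library left out. Numbered Gpr genes had 4 calls with DESeq2, no filter or 1 surrogate variable, 0 with library totals, the striatal covariate or without vehicle 1 and EB 4 together, and 1 to 2 with a library left out. The cAMP effectors had 1 call with library totals, the arcuate covariate or without vehicle 1 and EB 4 together, 0 with the striatal covariate, and 0 to 2 with a library left out. The lipid, melanocortin and adenosine receptors had 1 to 2 with a library left out. The causes were not tested. Gpr3 had the fewest counts of the members, 14 to 92 a library. No paired analysis was possible because replicate numbers are not in the labels.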
